A study of Mus musculus with 15 samples.

Results

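Chromatin accessibility in the *Smarcd1* knockdown line KD6 was compared with that in the scramble control line (Scr) in mouse 6DT1 cells, a mammary carcinoma cell line, by ATAC-seq. Of the 15 libraries of the series, the 6 libraries of these lines entered the comparison, 3 of KD6 and 3 of Scr, and KD4, the other *Smarcd1* knockdown line, was left out of the fit. Of the 44598 accessible regions listed for the knockdown comparison, 43936 passed the filter on low counts and were tested. KD6 and KD4 cells carried a lentiviral short hairpin RNA against *Smarcd1* and Scr cells a scramble hairpin, all kept under puromycin, while the empty vector (EV) and *Smarcd1* overexpression (OE) lines carried expression vectors and were kept under blasticidin. The labels give the Scr and EV lines as wildtype and the KD lines as knockdown. All 5 lines were grown as untreated monolayers on plastic, and each hairpin is represented by a single line. The labels do not say which hairpin sequence KD6 carries.

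ATAC-seq uses a transposase that cuts and tags DNA where nucleosomes or other proteins leave it exposed, so that the number of reads over a region reflects how often it was accessible in the cells sampled. Whether the counts used here hold ATAC-seq reads alone is uncertain, because the protocol in the labels is for RNA. SMARCD1, also called BAF60A, is a subunit of the SWI/SNF (BAF) chromatin remodelling complexes, which use ATP to slide or evict nucleosomes. The subunit lies in the structural core of these complexes and contacts transcription factors that bring them to enhancers and promoters. The question behind the comparison is whether lower *Smarcd1* expression alters which chromatin is open.

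Levels are given as CPM, counts per 1000000 after scaling by the TMM method. Library totals over the table were 16176521 to 19152961 counts in Scr and 17767562 to 22133596 in KD6, and mitochondrial regions took 3.18% to 3.87% of them. Levels correlated at r = 0.97 to 0.984 across regions between the libraries of KD6, and at 0.97 to 0.981 between libraries of different lines (log2 scale). The labels state that biological replicates were seeded from different passages on successive days, although that text describes RNA extraction. The regions carry positions in the mm39 build and no gene names. The *Smarcd1* transcript is not measured in these counts, so the knockdown itself was not checked here, and markers of the cell line could not be looked up.

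Regions that passed the test almost all had higher counts in KD6. Of the tested regions, 53 had higher counts in KD6 than in Scr, 0.121% of all, and 1 had lower counts, 0.00228% (edgeR quasi-likelihood test, Benjamini-Hochberg FDR of 0.05 over all tested regions). Without adjustment, p was under 0.05 for 1550 regions that were higher (3.53%) and 752 that were lower (1.71%). This imbalance depended on the setting. The counts were 2191 and 2056 without KD6 replicate 3, and 1112 and 1054 over the regions listed for the OE comparison. In the other fits the higher count led by more, the closest being 1489 and 1064 without Scr replicate 2. The 53 higher regions had a median log2 fold change of 1.24, or 2.37-fold, and ranged from 0.76 (1.69-fold) to 2.87 (7.32-fold). Among them, 41 exceeded a log2 fold change of 1 and 6 exceeded 2. Over all tested regions the median was -0.006, with the 1st percentile at -0.55 and the 99th at 0.84. In 0 of the 53 did a KD6 library overlap a Scr library, where 5.84% of all tested regions had every KD6 library above every Scr library. The number of higher calls depended on single libraries: it was 5 without Scr replicate 1, 15 without Scr replicate 3, 18 without KD6 replicate 2 and 34 without Scr replicate 2. It was 40 without KD6 replicate 1 and rose to 78 without KD6 replicate 3. Each such fit also had fewer libraries than the main fit. All 53 kept their direction in each of these fits, which follows from the absence of overlap and is no separate sign of stability. Of the 29 regions chosen for description by rule, 5 stayed past the threshold whichever library was left out, and the other 24 lost the call without at least 1 library.

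**Figure D1:**
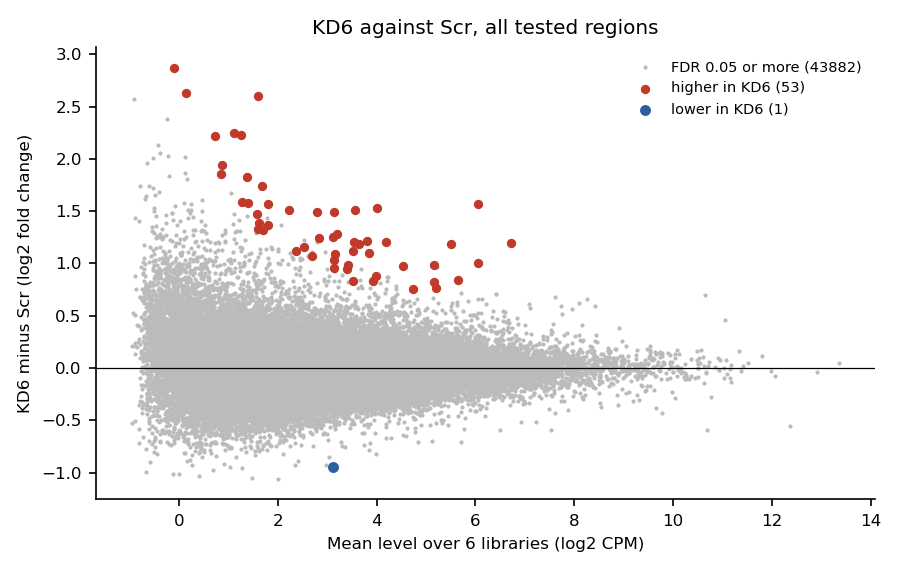
Log2 fold change of KD6 against Scr (y axis) and mean level over the 6 libraries (x axis, log2 CPM) of all 43936 tested regions. The 53 higher regions in red lie between 0.76 and 2.87, and the 1 lower region in blue lies at -0.94.

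The 53 higher regions lay on 16 chromosomes at 37 loci, 9 of which were runs of at least 2 higher regions less than 50 kb apart. These runs held 25 of the 53 regions, and the other 28 stood alone. No higher region lay on chromosomes 8, 12, 13, X or Y, which held 2235, 1665, 1770, 1473 and 29 tested regions. With 0.121% of all tested regions higher, few calls were to be had on any of them, and their absence is no result. By chromosome, the median log2 fold change over all tested regions stayed between -0.048 and 0.018 on the autosomes and X.

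The region with the smallest p was a single region of 672 bp at chr9:7446962-7447633. It had 27.4, 33.6 and 39.0 CPM in the 3 Scr libraries and 105, 92.4 and 99.1 in the KD6 libraries. The group means were 33.3 ± 5.81 CPM (SD, n = 3) and 98.8 ± 6.17 (SD, n = 3), a log2 fold change of 1.57 (SE 0.154, FDR = 0.000164 from edgeR). The lowest KD6 library thus lay far above the highest Scr library, and the call held in each alternative fit, the adjusted p reaching at most 0.00647.

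A run of 3 higher regions on chromosome 15, at chr15:54611167-54616965, had log2 fold changes of 2.23 to 2.60. Its last region, chr15:54616383-54616965, had 0.819, 0.744 and 0.873 CPM in Scr and 5.04, 4.55 and 5.24 in KD6, with a log2 fold change of 2.60 (SE 0.258, FDR = 0.000164 from edgeR). The Scr libraries there held a mean of 14.3 counts and the KD6 libraries 97.3, so the level was low in both lines. The other called regions of the run, chr15:54611167-54611419 and chr15:54615609-54616136, rose from 0.696 ± 0.155 to 3.34 ± 0.839 CPM and from 0.788 ± 0.455 to 3.68 ± 0.151 CPM (SD, n = 3), with log2 fold changes of 2.25 and 2.23 (FDR = 0.0044 and 0.0104 from edgeR). The tested region between them and the only other tested region within 50 kb missed the threshold, each with a log2 fold change of 2.02 (FDR = 0.0777 and 0.127 from edgeR).

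On chromosome 6 there were 2 runs of 3. At chr6:86083041-86096439 all 3 tested regions were higher and no other tested region lay within 50 kb. The largest change of the 3 was at chr6:86095468-86096439, with 9.14, 6.43 and 8.95 CPM in Scr and 29.0, 20.7 and 20.8 in KD6 (log2 fold change 1.53, SE 0.185, FDR = 0.00222 from edgeR). The neighbouring regions chr6:86084886-86086284 and chr6:86083041-86083285 rose from 8.32 ± 0.527 to 19.3 ± 1.98 CPM and from 5.3 ± 1.04 to 12.8 ± 1.7 CPM (SD, n = 3; log2 fold changes 1.22 and 1.28, FDR = 0.00315 and 0.00789 from edgeR). The KD6 library of replicate 1 was the highest of the 6 at each of these 3 regions.

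The second run on this chromosome, chr6:38665830-38674291, held the widest of all higher regions. This region, chr6:38669041-38672419, is 3379 bp wide and had 11.8, 10.6 and 10.5 CPM in Scr against 21.5, 28.1 and 26.4 in KD6 (log2 fold change 1.21, SE 0.157, FDR = 0.00315 from edgeR). On its sides, chr6:38665830-38668011 rose from 7.53 ± 0.513 to 17.2 ± 2.41 CPM and chr6:38672600-38674291 from 5.61 ± 1.18 to 11.9 ± 1.16 CPM (SD, n = 3; FDR = 0.0044 and 0.0254 from edgeR). Counts were thus higher over most of a stretch of 8462 bp. The 7 other tested regions within 50 kb did not pass the threshold but all had log2 fold changes above 0, with a median of 0.85.

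The run with the most called regions was at chr11:94234228-94256048, where 5 of the 8 tested regions inside were higher. Their log2 fold changes lay in a narrow range, 1.12 to 1.36, and the 3 regions between them that missed the threshold had 0.91 to 1.31. The region with the smallest p, chr11:94250077-94250767, had 6.87, 6.0 and 8.13 CPM in Scr and 15.1, 16.5 and 16.7 in KD6 (log2 fold change 1.20, SE 0.169, FDR = 0.0044 from edgeR). At chr11:94242629-94243035 the mean rose from 7.15 ± 1.8 to 15.6 ± 3.22 CPM (SD, n = 3; FDR = 0.0286 from edgeR). The other 3, chr11:94234228-94234528, chr11:94254257-94254639 and chr11:94255597-94256048, had 1.65 to 1.87 CPM in Scr and 4.17 to 4.82 in KD6. The differences were smaller next to the run: the closest 4 tested regions before it, within 4 kb, had log2 fold changes of 0.19 to 0.35, and the 2 tested regions after it had 0.91 and 0.81, none past the threshold. The calls of this run depended on single libraries: of the 6 fits that leave out a library, chr11:94250077-94250767 was past the threshold in 5, chr11:94242629-94243035 and chr11:94254257-94254639 in 2, chr11:94234228-94234528 in 1 and chr11:94255597-94256048 in 0.

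A pair of shorter runs lay elsewhere on chromosome 11. At chr11:120671794-120674177, chr11:120671794-120672692 had 2.65, 6.54 and 4.26 CPM in Scr and 14, 12.8 and 11.3 in KD6 (log2 fold change 1.49, SE 0.238, FDR = 0.0144 from edgeR), and chr11:120673860-120674177 rose from 1.06 ± 0.245 to 3.83 ± 0.578 CPM (SD, n = 3; log2 fold change 1.83, FDR = 0.00808 from edgeR). This rise was local, because the 20 uncalled tested regions within 50 kb, of which the highest had 596 CPM, had a median log2 fold change of -0.01. At chr11:20773947-20776511 the counts were lowest of all runs: chr11:20775751-20776511 rose from 0.701 ± 0.0514 to 2.69 ± 0.611 CPM and chr11:20773947-20774653 from 0.275 ± 0.225 to 1.67 ± 0.599 CPM (SD, n = 3; log2 fold changes 1.94 and 2.63, FDR = 0.0163 and 0.0408 from edgeR). At the latter, the Scr libraries had 0.504, 0.266 and 0.0546 CPM, and its call was lost in 9 of 16 alternative fits.

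Chromosome 10 held the higher region with the most reads. At chr10:18731412-18732812 the Scr libraries had 73.2, 64.9 and 54.5 CPM and the KD6 libraries 175, 134 and 130 (log2 fold change 1.19, SE 0.16, FDR = 0.00413 from edgeR). A narrow region about 10 kb before it, chr10:18720893-18721154, had 1.89, 2.66 and 2.51 CPM in Scr and 7.06, 7.08 and 6.1 in KD6 (log2 fold change 1.51, SE 0.216, FDR = 0.00505 from edgeR). They were the only tested regions within 50 kb of each other. On chromosome 1 the run chr1:191328293-191354722 differed from the others in that some tested regions inside had log2 fold changes below 0. Of the 9 tested regions inside, 3 were higher. The other 6 had, in order of position, 0.49, 0.05, -0.08, -0.54, 0.95 and 0.78. The region with 0.95 narrowly missed the threshold (FDR = 0.0512 from edgeR). The called regions were chr1:191328293-191328449, with 8.98 ± 0.676 CPM in Scr and 19.3 ± 4.65 in KD6, chr1:191351726-191351881, with 5.69 ± 0.648 and 11.7 ± 1.88, and chr1:191353291-191354722, with 24.0 ± 3.44 and 47.5 ± 9.57 (SD, n = 3; FDR = 0.0188, 0.028 and 0.0221 from edgeR). At all 3 the lowest KD6 library was replicate 3. All 3 also had values that were not whole in each of the 6 libraries, and the reason was not tested. The ninth run, a pair of adjacent regions on chromosome 18, had log2 fold changes of 0.83 and 0.88.

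**Figure D2:**
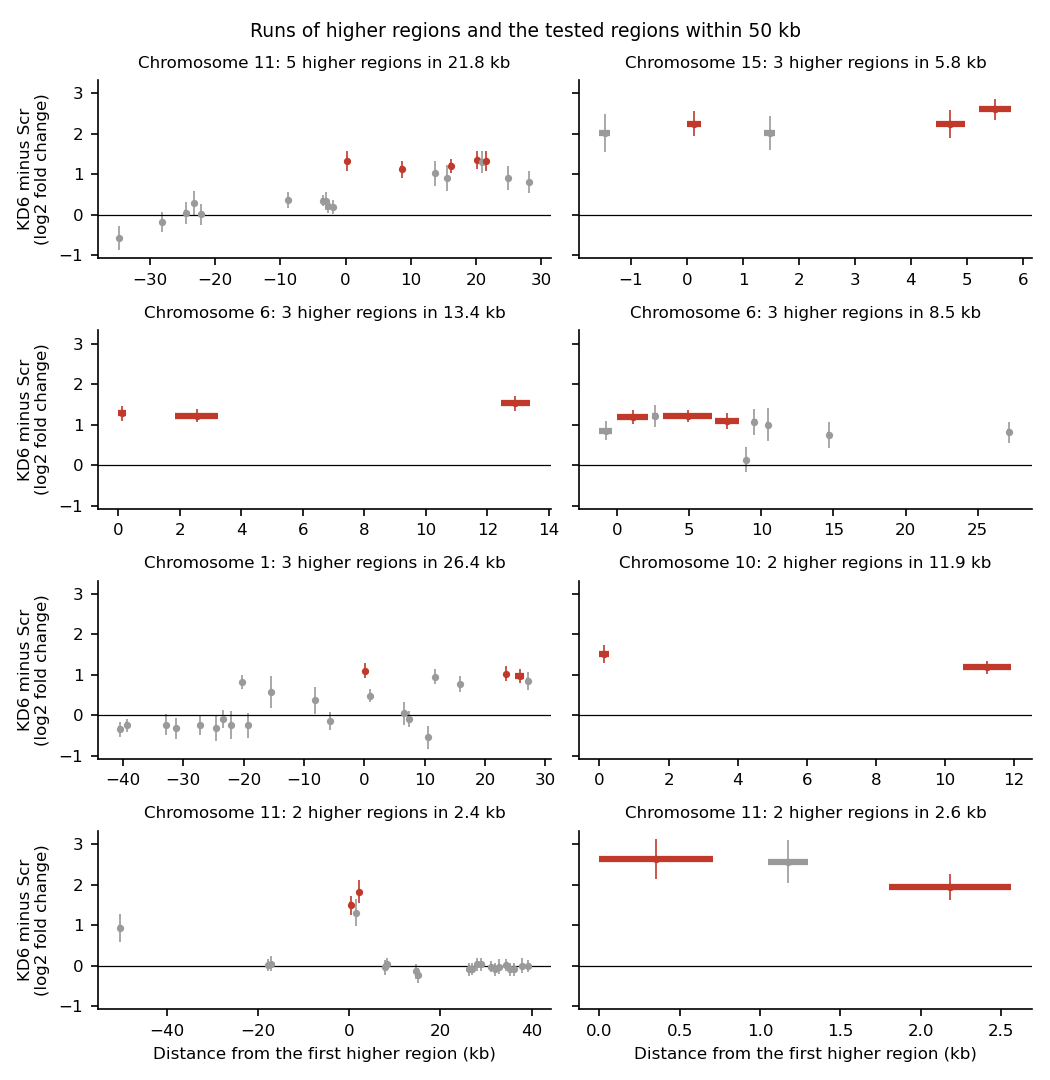
Log2 fold change of KD6 against Scr (y axis, with SE as vertical lines) of the called regions in red and the uncalled tested regions within 50 kb in grey, for the 8 runs with most called regions (x axis, distance from the start of the first called region; horizontal bars show region widths). In the run of 5 on chromosome 11 the 8 tested regions inside all lie above 0, whereas on chromosome 1 regions near 0 lie between the called ones.

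Besides that on chromosome 9, the single regions with the smallest p were wide. At chr16:10099695-10102282, 2588 bp wide, the Scr libraries had 27.3, 31.9 and 24.2 CPM and the KD6 libraries 65.5, 70.1 and 54.0 (log2 fold change 1.18, SE 0.154, FDR = 0.00315 from edgeR). At chr17:87562106-87563453 they had 45.8, 46.1 and 40.3 against 95.9, 86.6 and 82.5 CPM (log2 fold change 1.00, SE 0.139, FDR = 0.0044 from edgeR). At chr10:75386826-75389852, 3027 bp wide, they had 4.6, 8.02 and 5.46 against 15.5, 21.3 and 14.8 CPM (log2 fold change 1.51, SE 0.209, FDR = 0.0044 from edgeR). Replicate 2 was the highest library of both lines at the last of these. The narrow region chr6:136849502-136849774 had 3.15, 5.1 and 2.46 CPM in Scr and 10.9, 11.7 and 7.5 in KD6 (log2 fold change 1.49, SE 0.247, FDR = 0.0182 from edgeR).

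The only region past the threshold in the other direction was chr1:132260426-132260796. It had 11.8, 9.88 and 12.1 CPM in Scr and 5.23, 6.3 and 6.1 in KD6, with a log2 fold change of -0.94 (SE 0.176, FDR = 0.0383 from edgeR). The 2 groups did not overlap, as in 4.67% of all tested regions in this direction. The call was lost in 8 of 17 alternative fits, among them those without Scr replicate 1 or 3, without KD6 replicate 1 or 2 and with the replicate number as a block (FDR = 0.0592 from edgeR), and the log2 fold change stayed between -1.03 and -0.86.

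**Figure D3:**
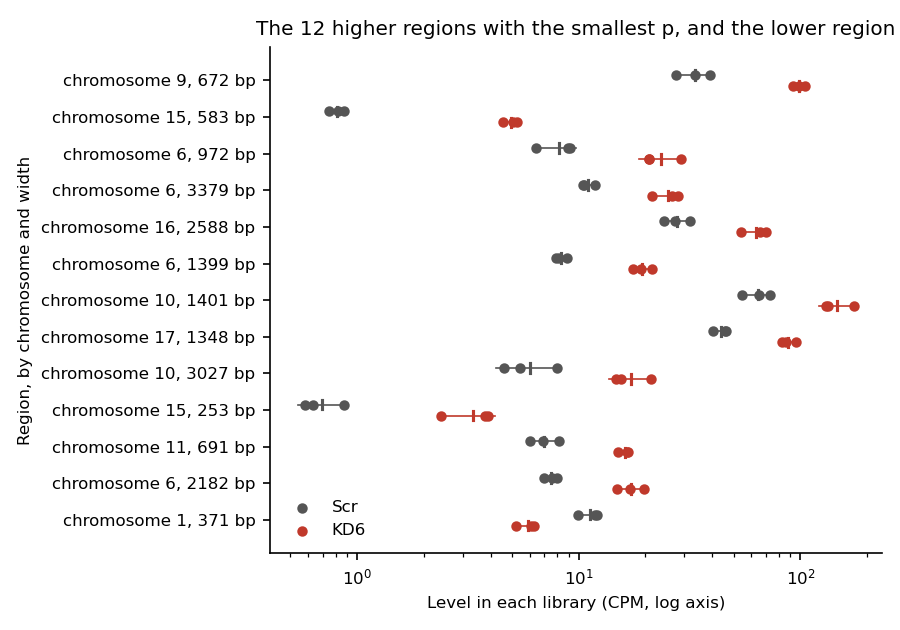
Level in each library (x axis, CPM on a log axis) of the 12 higher regions with the smallest p and of the lower region (bottom), each labelled by chromosome and width. Points are libraries, ticks are group means and horizontal lines are ± SD (n = 3); the Scr points in grey and the KD6 points in red do not overlap in any row.

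The higher regions differed from the rest in width, which the test did not use. Their median width was 672 bp (quartiles 318 and 1053 bp), against 304 bp (220 and 425 bp) over all tested regions. The share of regions that were higher was 0.0356% at up to 200 bp, 0.0614% above 200 and up to 300 bp and 0.0604% above 300 and up to 500 bp. It was 0.268% above 500 and up to 1000 bp, 1.27% above 1000 and up to 2000 bp and 12.9% (4 of 31) above 2000 bp. The median level also rose with width, from 3.08 CPM at up to 200 bp to 66.4 CPM above 2000 bp. Among regions of 8 to 64 CPM, 7 of 11259 under 500 bp were higher, 9 of 4034 from 500 to under 1000 bp and 10 of 538 (1.86%) at 1000 bp or more. Per kilobase, the higher regions had fewer reads than most, with a median of 10.3 CPM per kb against 19.1, and 17 of the 53 were among the 8788 regions with the lowest values of this measure and 3 among the 8787 with the highest.

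A shift with width extended to regions that did not pass the threshold. The median log2 fold change was -0.021 at up to 200 bp and -0.039 above 200 and up to 300 bp. It reached 0.136 above 1000 and up to 2000 bp and 0.358 above 2000 bp. In these 2 widest classes the share with an unadjusted p under 0.05 was 18.9% and 51.6% higher and 0% lower. In the libraries themselves the KD6 replicates differed. Relative to the mean of the 6 libraries, the median log2 level of regions above 1000 and up to 2000 bp was 0.16 in KD6 replicate 1 and 0.09 in replicate 2, but -0.042 in replicate 3, next to the Scr libraries (-0.096 to -0.044). The width shift in this range therefore rests mainly on 2 of the 3 KD6 libraries. The KD4 line, against the same Scr libraries, had medians of 0.154 above 1000 and up to 2000 bp and 0.413 above 2000 bp, and the median of KD6 minus KD4 there was -0.011 and -0.055. Values that were not whole numbers occurred at 45.3% of the higher regions and 16.5% of all tested regions, and rose with width from 9.76% to 67.7%; their part in the result was not tested. With regions of 1000 bp or more left out of the fit, 32 regions were higher and 0 lower.

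**Figure D4:**
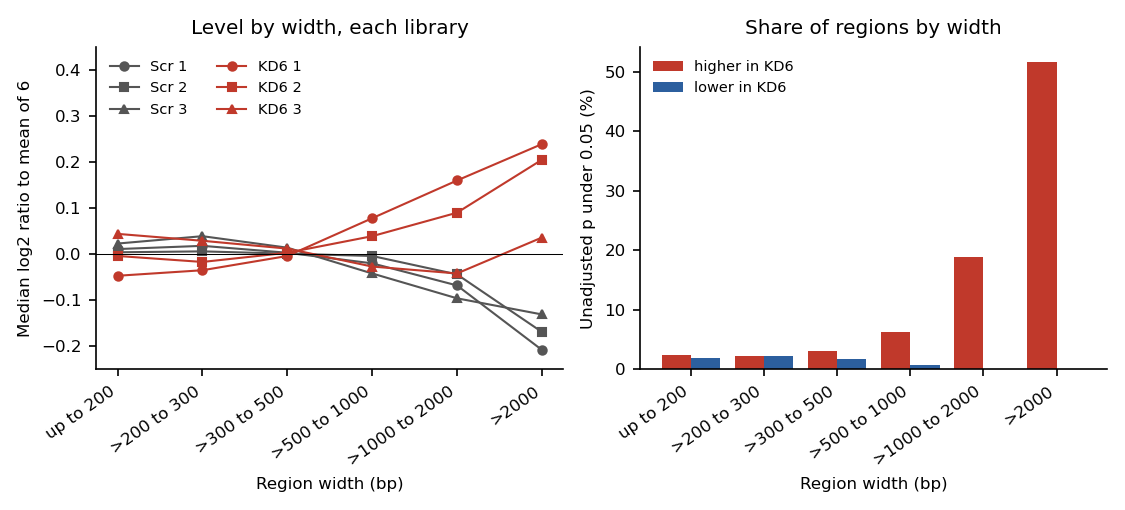
Left, median log2 ratio of each library to the mean of the 6 libraries (y axis) by region width (x axis, bp), with Scr in grey and KD6 in red. Right, percentage of tested regions with an unadjusted p under 0.05 by width, higher in red and lower in blue. KD6 replicates 1 and 2 rise to 0.239 and 0.205 above 2000 bp and replicate 3 to 0.036, and the higher share reaches 51.6%.

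The log2 fold changes of neighbouring regions were correlated beyond the called runs. Across pairs of adjacent tested regions, the correlation of the log2 fold change was r = 0.54 for gaps under 1 kb (15456 pairs), 0.43 at 1 to 5 kb, 0.26 at 5 to 20 kb, 0.19 at 20 to 50 kb and 0.1 at 50 to 200 kb; the pairs share libraries and are given as a description. Of the 153 uncalled tested regions within 50 kb of a higher one, 105 (68.6%) had a log2 fold change above 0, compared with 48.9% of all tested regions, and unadjusted p was under 0.05 for 58 in the higher direction (37.9%) and 0 in the lower. Their median was 0.24. When counts were summed in windows of 50 kb, in place of counts per gene, 65 of 12820 windows (0.507%) were higher and 5 (0.039%) lower, and 32 of the 65 held a region called higher. The window chr15:54600001-54650000 had the smallest p, with 2.96 ± 0.49 CPM in Scr and 14.6 ± 1.71 in KD6 (SD, n = 3; log2 fold change 2.31, FDR = 0.000255 from edgeR). Among windows with no called region, chr3:9500001-9550000 had 4.52 ± 0.583 CPM in Scr and 11.1 ± 1.39 in KD6 over 5 regions (SD, n = 3; log2 fold change 1.30, FDR = 0.00632 from edgeR). The number of higher windows fell to 13 without KD6 replicate 2, 20 without Scr replicate 1, 26 without KD6 replicate 1, 31 without Scr replicate 3 and 34 without Scr replicate 2. It was 72 without KD6 replicate 3.

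The number of regions with detectable reads did not pass a test. With each library thinned to 16176521 counts, regions holding 10 counts or more numbered 43007 ± 261 in Scr and 43437 ± 308 in KD6 (SD, n = 3), a difference of 430.3 regions (two-sided exact permutation test, p = 0.2, where 3 against 3 libraries cannot go below 0.1). Of all tested regions, 252 had a log2 fold change above 1 and 5 one below -1.

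The knockdown lines were set side by side at these 53 regions, which were chosen on KD6 and share their Scr libraries with KD4. KD4 against Scr was also higher at 19 of the 53 (FDR 0.05), where 0.369% of all regions were higher and 0.0888% lower in that fit, and its log2 fold change was above 0 at 49, with a median of 0.90 and a range of -0.38 to 3.57, while 48.6% of all tested regions were above 0 in KD4. Because the 53 were chosen for low counts in the same Scr libraries, KD4 values above 0 are favoured there before any are counted, and the shares over all regions do not allow for that. Tested directly, KD6 exceeded KD4 at 6 of the 53 and was below it at 0 (0.113% and 0.0543% of all regions in that fit), and at 28 neither test passed. The choice of regions with high counts in the same KD6 libraries favours this direction, and the shares over all regions do not allow for that either. The regions where both lines were higher included the chromosome 10 region chr10:18731412-18732812, with 62.9 ± 9.25 CPM in Scr, 168 ± 9.63 in KD4 and 144 ± 24.8 in KD6 (SD, n = 3, on a scale common to all 15 libraries; KD4 log2 fold change 1.42, FDR = 0.00158 from edgeR). They also included chr6:38669041-38672419, with 10.7 ± 0.714, 32.2 ± 5.92 and 24.9 ± 3.31 CPM (SD, n = 3; KD4 FDR = 0.00158 from edgeR).

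At 5 of the 6 regions that separated the lines, KD4 stayed near the Scr level or below it. At chr9:7446962-7447633 the Scr libraries had 32.7 ± 5.64 CPM, KD4 33.8 ± 9.2 and KD6 96.9 ± 6.12 (SD, n = 3), and KD6 minus KD4 was 1.52 on the log2 scale (SE 0.172, FDR = 0.00515 from edgeR). At chr16:10099695-10102282 the levels were 27.3 ± 3.82, 23.6 ± 4.47 and 62.0 ± 8.24 CPM, and at chr2:76525763-76526815 they were 15.2 ± 2.46, 11.7 ± 1.0 and 30.0 ± 4.55 CPM (SD, n = 3; KD6 minus KD4 1.39 and 1.36, both FDR = 0.00515 from edgeR). The regions chr7:142065805-142066103 and chr3:92029630-92030657 followed the same order, with 5.67 ± 0.355 against 13.4 ± 1.17 CPM and 3.94 ± 0.426 against 9.67 ± 3.3 CPM in KD4 and KD6 (SD, n = 3; FDR = 0.00937 and 0.0375 from edgeR). At chr6:86095468-86096439 KD4 lay between the others, with 8.01 ± 1.48 CPM in Scr, 11.7 ± 1.2 in KD4 and 23.1 ± 4.69 in KD6 (SD, n = 3). Mean EV levels were above KD6 at chr2:76525763-76526815 (34.2 CPM) and chr3:92029630-92030657 (10.5 CPM). They were below KD6 at the other regions, with 53.2 CPM at chr16:10099695-10102282, 19.4 at chr6:86095468-86096439, 59.5 at chr9:7446962-7447633 and 10.4 at chr7:142065805-142066103. Of these 6, all KD6 libraries lay above all other libraries of the series only at the chromosome 9 and chromosome 7 regions. The lower region chr1:132260426-132260796 had 11.1 ± 1.19 CPM in Scr, 9.98 ± 0.386 in KD4 and 5.77 ± 0.555 in KD6 (SD, n = 3), and KD6 minus KD4 was -0.79 (FDR = 0.0809 from edgeR).

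The EV and OE lines, whose cells carry no hairpin, gave a further reference over the same regions. Since the 53 were chosen for high KD6 and low Scr counts, their own levels are set by that choice, while the EV and OE libraries had no part in it. Relative to KD6, the median log2 level over the 53 was -0.23 in EV, -0.37 in KD4, -0.4 in OE and -1.24 in Scr. All 3 Scr libraries lay below all 3 EV libraries at 47 of the 53 (13.1% of all tested regions), below all OE libraries at 48 (10.7%), below all KD4 libraries at 37 (8.72%) and below the other 12 libraries at 30 (1.21%). The choice of regions with low Scr counts favours such an order, and the shares over all tested regions, which were not chosen in that way, do not give the number to be had without a difference. All KD6 libraries lay above the other 12 at 10 of the 53 (0.223% of all tested regions), among them chr9:7446962-7447633, chr15:54616383-54616965, chr6:86084886-86086284 and 3 regions of the chromosome 11 run of 5.

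Tested against EV instead of Scr, KD6 had 63 higher (0.143%) and 37 lower (0.0839%) regions of 44124, and of the 53 regions 1 was higher and 1 lower. The higher was chr2:3225863-3226771, with 6.0 ± 0.932 CPM in EV, 5.74 ± 0.421 in Scr and 11.2 ± 0.689 in KD6 (SD, n = 3; KD6 minus EV 0.90, SE 0.169, FDR = 0.0305 from edgeR). The lower was chr5:88077596-88078036, where EV had 15.6 ± 2.16 CPM, KD6 6.73 ± 0.99 and Scr 3.09 ± 0.103 (SD, n = 3; KD6 minus EV -1.21, SE 0.169, FDR = 0.00351 from edgeR). Over the 53 the median of KD6 minus EV was 0.24, and 36 lay within 0.5 of 0 on the log2 scale. At chr10:18731412-18732812, for example, EV had 193 ± 26.8 CPM and OE 167 ± 5.81 (SD, n = 3), both above KD6. Which of the Scr and EV lines is closer to unmodified 6DT1 cells cannot be told apart, because no untransduced library was analysed and the lines differ in vector and drug.

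**Figure D5:**
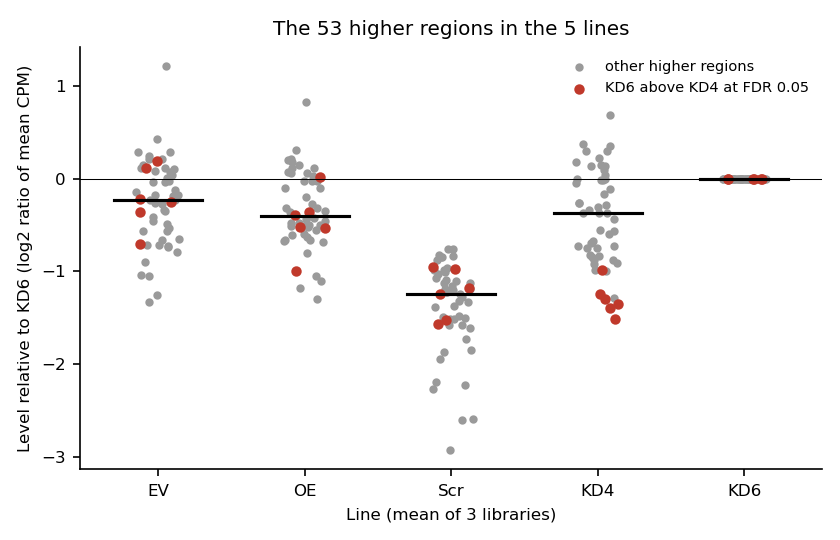
Level of the 53 higher regions in each line as the log2 ratio of the line's mean CPM (n = 3 libraries) to the KD6 mean, with the median as a bar. The 6 regions where KD6 exceeded KD4 are in red; the medians are -0.23 in EV, -0.4 in OE, -1.24 in Scr and -0.37 in KD4, and KD6 is 0 by construction.

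The other table of the series lists 38036 regions for the OE comparison, and the same 6 libraries were tested over them. There 4 regions were higher in KD6 and 1 lower. Of the 53 higher regions, 22 (41.5%) had an overlapping region in that table, against 60.6% of all tested regions, and 9 were matched by at least 50% of both regions. At these 9 the log2 fold change was 0.99 to 1.63, and 1 passed the threshold, that on chromosome 9 matching chr9:7446962-7447633 (1.63, FDR = 0.000983 from edgeR). These values come from the same libraries and show how the list of regions, not new cells, affects the calls.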

How the data were processed

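Libraries were prepared by the authors from nuclei of 6DT1 monolayers and sequenced as read pairs. According to the methods, reads were aligned to mm39 with Bowtie2 and peaks called with MACS in Partek Flow. In the submitters' processing notes the tool is STAR 2.7.8a, also with mm39, and the protocol in the labels is for RNA. The aligner behind the table, and whether ATAC-seq reads alone were counted, are therefore uncertain. Expected counts for each region, without normalization, were deposited, of which 94.9% were whole and 0 were zero in the 6 libraries. How peak merging and read assignment were done is not given in the sources used. Each table holds 15 further columns of per-sample values that match no sample, which were not used.

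Expected counts were rounded, although the design had assumed whole counts, and KD6 and Scr were fitted alone with edgeR 4.0.16 (TMM, filterByExpr, quasi-likelihood F test, FDR 0.05) in R 4.3.3, after a check on simulated data. KD4 against Scr, KD6 against KD4 and KD6 against EV were fitted separately over the same table. SE is the log2 fold change divided by the square root of F. Counting error, relative to the level, falls as the mean count of a region rises, and the spread between libraries adds to it. Replicate libraries differed from one another by 7.08 to 17.9 times the sampling noise, so none was counted as a duplicate. The numbers of detected regions were compared by an exact permutation test over the libraries. DESeq2 1.42.0 was an alternative.

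Regions named were, in each direction, the 12 of smallest p, the 5 with the largest change among those of at least 5 CPM, and the called regions of the 8 neighbourhoods of 50 kb with most calls; other regions were named after their values were seen. No annotation of mm39 was used, so fits per gene, the gene lists, cell markers, promoter classes and sequences could not be given. The members and lists were chosen with earlier results of these data known. Windows, the comparison with EV and the fit without wide regions were added after seeing the data. Alternatives were other scalings, filters, thresholds and tools, KD4 in the fit, thinned libraries, a replicate block and each library left out.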

Additional observations from a re-analysis of the deposited data

Results flagged for a closer look

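At 6 of the 53 higher regions the knockdown lines differed from each other when KD6 was tested against KD4 directly (edgeR, FDR 0.05 over 44181 regions). KD6 minus KD4 on the log2 scale was 1.52 at chr9:7446962-7447633, 1.39 at chr16:10099695-10102282, 1.36 at chr2:76525763-76526815, 1.30 at chr3:92029630-92030657, 1.24 at chr7:142065805-142066103 and 0.97 at chr6:86095468-86096439. All 6 were first chosen for a high level in KD6, and 3 KD6 libraries stood against 3 KD4 libraries. The EV mean was above that of KD6 at chr2:76525763-76526815 (34.2 against 30.0 CPM) and chr3:92029630-92030657 (10.5 against 9.67 CPM), and below it at the others.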

How the results depend on the processing

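Of the 54 calls, all that were tested kept their direction in every fit over the same table, but the number past the threshold varied. Because the 2 groups do not overlap at these regions, leaving out a library could hardly have changed the direction. Against 53 higher and 1 lower regions, DESeq2 gave 115 and 8, an FDR of 0.1 gave 99 and 4, an FDR of 0.01 gave 15 and 0, the fit without regions of 1000 bp or more gave 32 and 0, and counting over the OE table's regions gave 4 higher. Lower regions numbered 2 with upper quartile scaling, 3 with KD4 in the fit and 0 with at least 50 counts in 3 libraries. Leaving out each library gave 5 (without Scr replicate 1) to 78 (without KD6 replicate 3) higher and 0 to 5 lower regions. Of the 29 named regions, 5 were past the threshold in all fits that left out a library: chr9:7446962-7447633, chr15:54616383-54616965, chr6:86095468-86096439, chr6:38669041-38672419 and chr10:18731412-18732812. For windows, against 65 higher and 5 lower, DESeq2 gave 115 and 13, windows of 20 kb gave 3 lower, and leaving out each library gave 13 to 72 higher and 0 to 8 lower. The difference in detected regions stayed above 0, from 189.3 at a minimum of 5 counts (exact permutation p = 0.1) to 685.3 without thinning (exact permutation p = 0.1), and from 284.8 to 591.3 without each library in turn. If 20 counts were required, it was 327 (exact permutation p = 0.7), with KD6 replicate 1 below all Scr libraries. The cause of these differences was not tested. Settings per gene were not run.

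Deviations from the group means of libraries with the same replicate number correlated at r = -0.06, 0.06 and 0.22. Between libraries with different numbers, r lay between -0.36 and 0.34. Deviations within a line cancel out, so these values can neither show nor exclude a pairing by number. With the replicate number as a block, 58 regions were higher and 1 lower, 50 of the 59 being among the 54 calls; the lower region was another, since chr1:132260426-132260796 lost its call (FDR = 0.0592 from edgeR), and 87 windows were higher and 8 lower.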

Other observations

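Windows of 50 kb with lower counts in KD6 held no called region. The window chr17:28350001-28400000 fell from 27.0 ± 4.87 CPM in Scr to 15.1 ± 0.942 in KD6 over 4 regions (SD, n = 3; log2 fold change -0.84, FDR = 0.0265 from edgeR), and chr11:6500001-6550000, with 1 region, fell from 5.34 ± 0.539 to 2.56 ± 0.306 CPM (SD, n = 3; log2 fold change -1.06, FDR = 0.0389 from edgeR). A called higher region on the same chromosome, chr17:28294635-28295201, lay before the first of these windows and rose from 7.06 ± 0.486 to 13.9 ± 2.4 CPM (SD, n = 3). On chromosome Y, 25 of the 29 tested regions had a log2 fold change below 0, with a median of -0.2 and 0 past the threshold. Over all tested regions, 48.9% were above 0. Few counts lay on chromosome Y, 0.029% to 0.0351% of those in a Scr library and 0.0221% to 0.0282% in a KD6 library.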
